A study of Canis lupus familiaris and Eptesicus fuscus and Equus caballus with 6 samples.

Results

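The carnivore and canid L1 families of the dog testis are described here through 25 repeat models of the dog mRNA library, out of 955 models in its file and 2452 in the files of the 3 species. The members were all models whose name starts with L1_C and whose class is LINE/L1. They belonged to 11 families: L1_Cf, L1_Canis1, L1_Canis2, L1_Canid, L1_Canid2, L1_Carn1, L1_Carn2, L1_Carn3, L1_Carn5, L1_Carn7 and L1_Carni. The rule uses names and no measured value, although it was set with earlier results of these data known. None of the 25 names occurred in the horse file or the bat file, so that the families are particular to dog among the 3 lists of models. The L1_Carn names point to carnivores as a whole rather than to dog, and the age of no family was measured here.

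The study sequenced testis tissue of adult animals of 3 species, the dog, the horse and the bat Eptesicus fuscus (big brown bat), with 1 small RNA and 1 mRNA library per species, to ask how piRNAs act on transposable elements in species that differ in element activity. No treatment, strain or genotype is given for any group, and the number of animals behind a library is not given in the sources used here. The dog mRNA library held 679582 rebuilt reads on repeat models, of which 103795 lay on the 683 models of transposable elements and 84.4% on rRNA. The horse library held 666118 rebuilt reads and the bat library 55904 expected counts. With 1 library per species no difference has a replicate check, and every interval holds within 1 library only. The intervals computed here cover counting error alone, and the deposited TPM bounds are a separate kind. PCR reads carried no molecular identifiers. The file lists repeat models alone, so that testis cell markers were not analysed, and in bulk tissue fewer cells of a type and less RNA per cell cannot be told apart.

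L1 elements are autonomous retrotransposons that copy themselves through RNA. A complete element has a 5-prime region with an internal promoter, ORF1, which codes for an RNA-binding protein, ORF2, which codes for the endonuclease and reverse transcriptase, and a 3-prime region that ends in a poly(A) tail. Reverse transcription starts at the 3-prime end of the RNA and often stops early, so that many genomic copies lack their 5-prime part. In the male germ line L1 is a main target of the piRNA pathway. The dog models cut each family into up to 3 parts, named 5end, orf2 and 3end. By their names these cover the region before ORF2, ORF2 itself, and the region after it. Reads that map to a model can come from any genomic copy and from any transcript that contains a copy, and the files do not separate these sources. Consensus sequences of the families were not used here, so that neither their bases nor the piRNAs that match them are shown.

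All 25 models had at least 10 reads, from 34.8 for L1_Carni_3end to 14178 for L1_Cf_orf2. Over all 683 element models of the dog file, 19.0% reached 10 reads. Of the 95 other L1 models, 37 did, 25 had fewer and 33 had none. The 25 models held 71258 reads, which was 68.7% of the element reads (exact 95% binomial interval 68.4 to 68.9%) and 96.2% of the L1 reads (96.1 to 96.4%). As a share of TPM, which weighs short models such as SINEs more, they took 19.7% of the element total. Among element models ranked by reads, 6 of the first 10 and 23 of the first 50 were L1_C models, and by TPM 3 of the first 10 and 18 of the first 50.

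Most of the reads lay on families named for the dog and for the genus Canis. L1_Canis1 held 25147 reads (35.3% of the L1_C reads, 34.9 to 35.6%) and L1_Cf 23740 reads (33.3%, 33.0 to 33.7%). L1_Canis2, described by its 5end and orf2 models alone, held 11079 reads (15.5%). These 3 families together made up 84.2% of the L1_C reads and 57.8% of all element reads in the library. The canid families L1_Canid and L1_Canid2 had 6.05% of the L1_C reads, most of them on L1_Canid with 4022 reads. The 6 carnivore families had 9.79%, led by L1_Carn2 with 3440 reads and L1_Carn7 with 1394 reads. L1_Carn3 had 946 reads, L1_Carn5 had 754, L1_Carni had 301 and L1_Carn1, described by its 5end model alone, had 144. Families differed in how many parts were modelled, since 5 had 3 parts, 4 had 2 and 2 had 1, so that totals of families with unlike parts are not comparable. Levels are therefore compared below within a part, in TPM, which is per length.

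**Figure D1:**
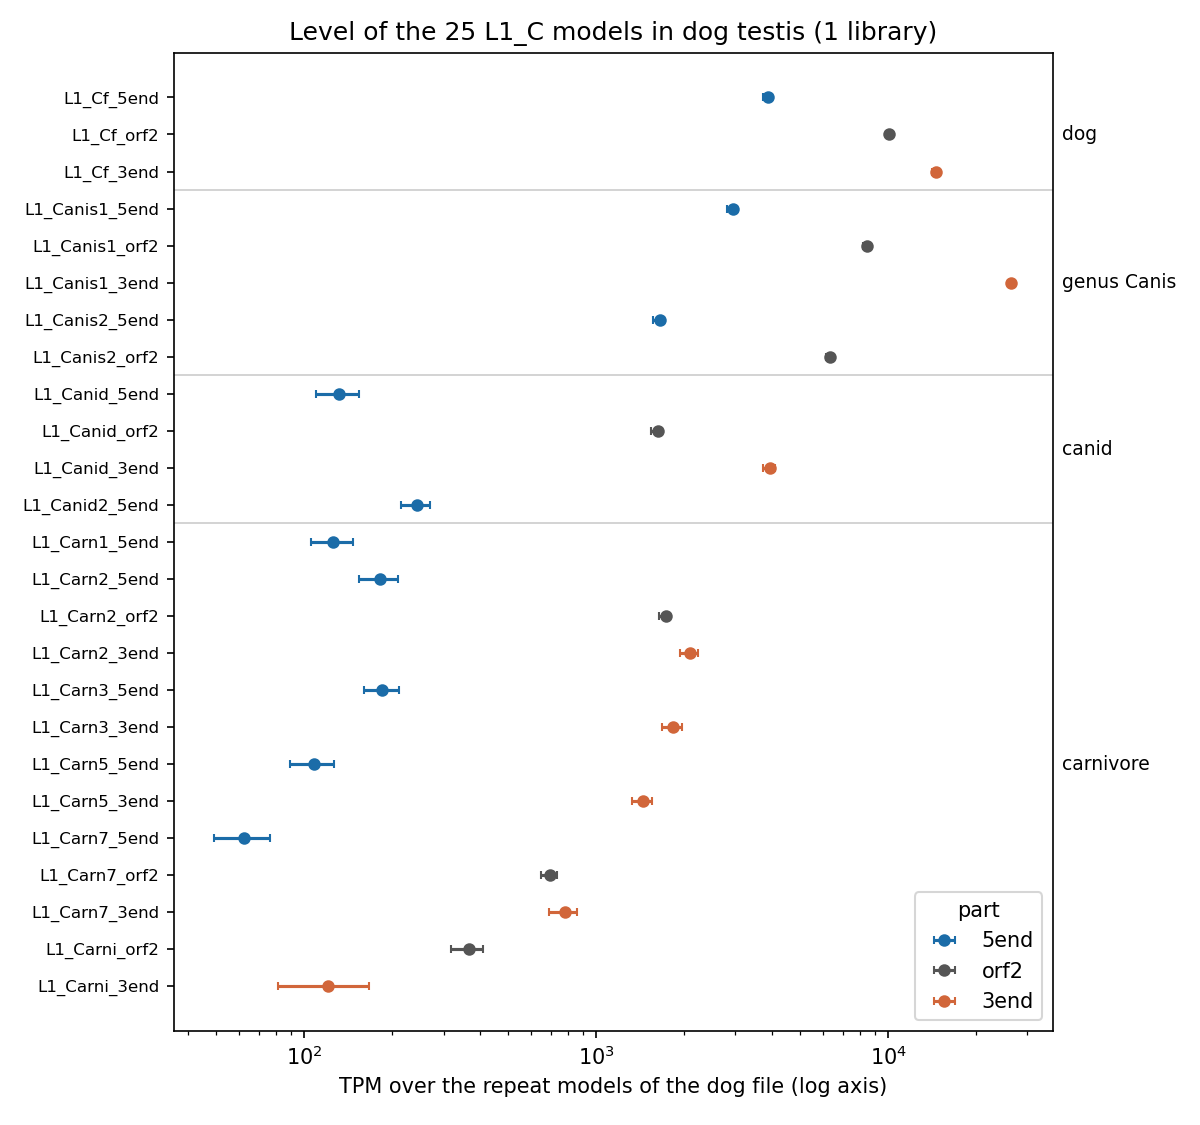
TPM of each of the 25 L1_C models in the 1 dog mRNA library on a log axis, with the interval bounds deposited by the authors as bars (not visible where they are narrower than the point), grouped by the lineage in the family name and coloured by part. Models of the dog and the genus Canis lie between 1654 and 26430.1 TPM, and those of canids and carnivores between 62.2 and 3949 TPM.

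The orf2 models, which cover the region of the endonuclease and reverse transcriptase, gave a near-complete order of the families. L1_Cf_orf2 stood highest at 10079 TPM (deposited interval 9806 to 10174). L1_Canis1_orf2 followed at 8459.96 TPM (8213 to 8557) and L1_Canis2_orf2 at 6343 TPM (6150.24 to 6424). These 3 intervals did not overlap, and L1_Cf_orf2 was 1.19 times L1_Canis1_orf2 (counting interval 1.16 to 1.22). How reads that match several families were divided between the models was not tested, and the counting intervals do not cover it. This holds for all levels and ratios of families given here. A step of 3.67 times (3.51 to 3.84) separated L1_Canis2_orf2 from the next model, L1_Carn2_orf2.

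L1_Carn2_orf2 was at 1729 TPM (1645 to 1782) and L1_Canid_orf2 at 1623 TPM (1543 to 1678). Their deposited intervals overlapped, and their ratio of 1.07 had a counting interval of 1.006 to 1.13, so that the carnivore family was not below the canid family. L1_Carn7_orf2 had 695 TPM (646 to 734) and L1_Carni_orf2, a shorter model of 1712 nt, had 366 TPM (319 to 409). The other orf2 models of this list were 3285 to 3294 nt long. L1_Carni_orf2 was nonetheless 1.45 times (1.23 to 1.71) the highest orf2 model outside the L1_C families, L1M3_orf2 at 252 TPM. L1M names denote old mammalian L1 subfamilies.

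The 5end models, which cover the region that full-length copies keep and truncated copies often lack, fell into 2 separate ranges. L1_Cf_5end was at 3888 TPM (3728 to 3989), L1_Canis1_5end at 2951 TPM (2803 to 3045) and L1_Canis2_5end at 1654 TPM (1571 to 1711). The other 7 models, of canid and carnivore families, lay between 62.2 TPM for L1_Carn7_5end (49.04 to 76.4) and 243 TPM for L1_Canid2_5end (214 to 270). The gap between L1_Canis2_5end and L1_Canid2_5end was 6.82 times (6.02 to 7.72), against a total spread of 3.90 times within the 7 lower models.

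Within the lower range the order did not follow the lineage in the names. L1_Carn3_5end had 185 TPM and L1_Carn2_5end 182 TPM, with overlapping intervals. Both were above L1_Canid_5end at 132 TPM, by 1.40 times (1.13 to 1.75) and 1.38 times (1.10 to 1.74). L1_Canid_5end, L1_Carn1_5end at 126 TPM and L1_Carn5_5end at 108 TPM had deposited intervals that overlapped from each to the next. The reads behind these 7 models ranged from 81.3 for L1_Carn7_5end to 292 for L1_Canid2_5end.

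The 3end models, which cover the region that truncated copies usually keep, ranked L1_Canis1 above L1_Cf, the reverse of the other parts. L1_Canis1_3end reached 26430.1 TPM (25657 to 26709.9), and L1_Cf_3end 14637 TPM (14118 to 14924). Their ratio was 1.81 (1.75 to 1.87), while L1_Cf was 1.19 times L1_Canis1 in orf2 and 1.32 times (1.26 to 1.38) in 5end. No 3end model of L1_Canis2 was analysed here. Set against the orf2 levels of L1_Canis1 and L1_Canis2 together, 14803 TPM, L1_Canis1_3end was 1.79 times as high, a sum made after the values were seen.

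L1_Canid_3end followed at 3949 TPM (3715 to 4111), 1.88 times (1.73 to 2.05) L1_Carn2_3end at 2098 TPM (1933 to 2227), although the orf2 levels of these families were close. L1_Carn3_3end had 1837 TPM (1687 to 1962). Its deposited interval overlapped that of L1_Carn2_3end at the ends only, and L1_Carn2_3end was 1.14 times L1_Carn3_3end (counting interval 1.03 to 1.26). L1_Carn5_3end had 1452 TPM and L1_Carn7_3end 784 TPM, each apart from the model above it. L1_Carni_3end stood far below at 120 TPM (81.6 to 167) on 34.8 reads.

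Across the 3 parts, 17 of the 22 steps between neighbouring L1_C models were apart by their deposited intervals, 6 of 9 in 5end, 5 of 6 in orf2 and 6 of 7 in 3end. Among other L1 models with at least 10 reads, neighbouring intervals all overlapped in 5end and nearly all in 3end, while most were apart in orf2. The share over all element models was not computed, so that the count is not read as a trait of the L1_C families. The deposited intervals narrow as reads rise. These intervals were about as wide as read counting alone would make them. Their width divided by that of the exact Poisson interval of the rebuilt reads had a median of 1.0104 over the 25 models (0.977 to 1.13), and of 0.987 over the 130 element models with at least 10 reads (0.907 to 1.498). The widest relative to counting were L1_Canis1_orf2 at 1.13, L1_Canis1_5end at 1.11 and L1_Cf_orf2 at 1.11.

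Against the other L1 models of the file with the same part names, most L1_C models stood apart in level. Those of the 95 other models without such a part name were not compared. The 10 L1_C 5end models were the 10 highest of 50, with a median of 184 TPM. The highest of the 40 others was L1MCa_5end at 34.4 TPM, and 23 of the 40 had no read, which allows up to 3 reads for each. The 7 L1_C orf2 models were the 7 highest of 13, with a median of 1729 TPM, against a median of 116 TPM for the other 6. Of the 8 L1_C 3end models, 7 were above all 43 others, whose median was 29.9 TPM. The exception was L1_Carni_3end, which 10 other 3end models exceeded, the highest being L1MC1_3end at 569.93 TPM.

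**Figure D2:**
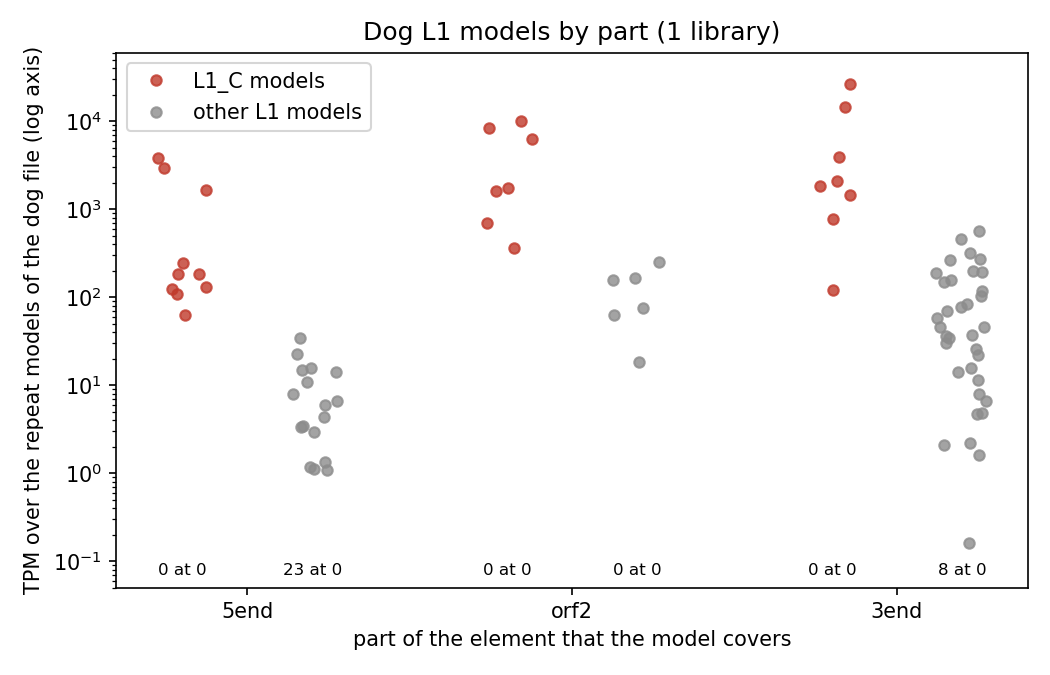
TPM on a log axis of the dog L1 models by the part they cover, with L1_C models in red and the other L1 models in grey, each point 1 model of the 1 dog mRNA library (horizontal scatter is random). Models with no read are not drawn and are counted at the foot of each column. The red and grey ranges are separate in 5end and orf2 and overlap in 3end through L1_Carni_3end at 120 TPM.

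Reads were not spread evenly along the element in any of the 5 families with 3 parts, which together held 81.0% of the L1_C reads. In L1_Cf the 5end model made up 36.7% of the length (each model less 24 nt) and took 17.0% of the reads. Its orf2 model took 59.7% of the reads with 49.9% of the length, and its 3end model 23.3% of the reads with 13.4% of the length. In L1_Canis1 the 5end model took 11.4% of the reads and the 3end model 41.3%. In L1_Canid these shares were 3.49% and 39.7%, in L1_Carn2 5.12% and 24.2%, and in L1_Carn7 5.83% and 24.1%. The 5end share of the reads was thus below its share of the length in all 5 families, and the 3end share above it.

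**Figure D3:**
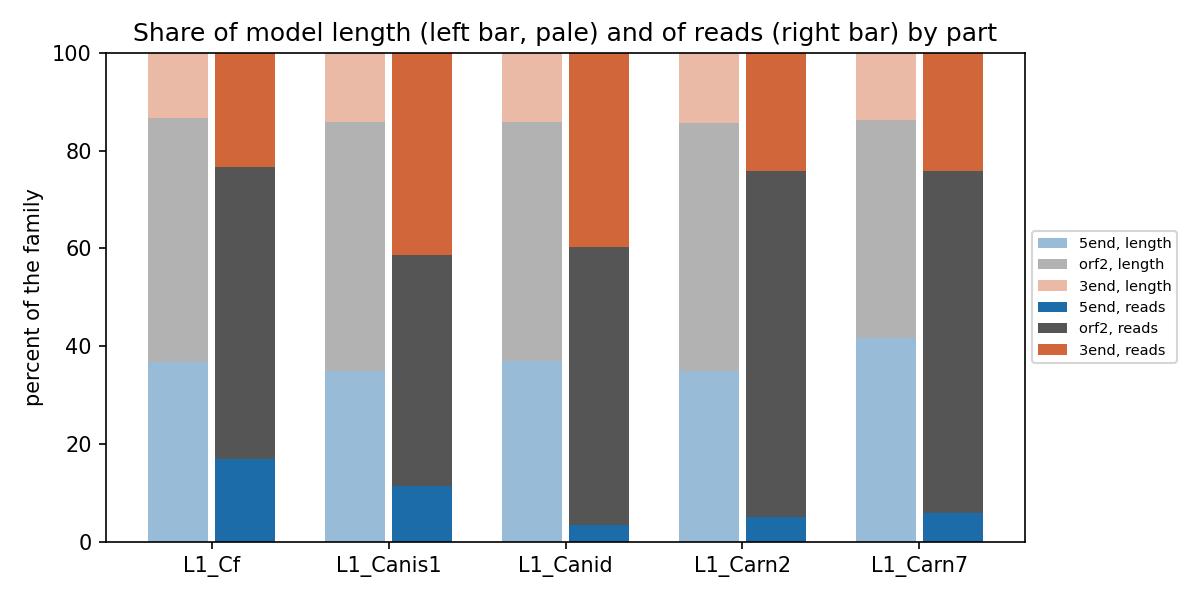
For each of the 5 L1_C families with 3 models, the left pale bar gives the percent of model length in the 5end, orf2 and 3end parts, and the right bar the percent of rebuilt reads in the 1 dog mRNA library. The blue 5end share shrinks from length to reads in every family, to 17.0% in L1_Cf and to 3.49% in L1_Canid.

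Within families the orf2 level was above the 5end level in 6 of 6 families that had both, and the ratio was lowest in the families named for the dog and the genus Canis. It was 2.59 in L1_Cf (counting interval 2.50 to 2.69), 2.87 in L1_Canis1 (2.75 to 2.99) and 3.84 in L1_Canis2 (3.66 to 4.02). It was 9.48 in L1_Carn2 (8.14 to 11.1), 11.2 in L1_Carn7 (8.93 to 14.2) and 12.3 in L1_Canid (10.4 to 14.7). The last 3 intervals overlapped each other and lay above the first 3. L1M4, the only older L1 family with reads on models of both parts, had a ratio of 10.5 (6.40 to 18.3), inside the range of the canid and carnivore families. The 5end models L1M4a1, L1M4a2, L1M4b and L1M4c, without an orf2 model of their own, had 1.17, 7.99, 10.8 and 22.4 TPM. They do not enter this ratio, which would be lower with their TPM added to the 5end side. L1M2, which also has both models, had 76.1 TPM in orf2 and no read in 5end, so that no ratio was formed. L1M4 thus does not stand for older families in general.

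This contrast was smaller when 5end models without an orf2 partner were counted. L1_Canid2, L1_Carn1, L1_Carn3 and L1_Carn5 have a 5end model here and no orf2 model. With TPM summed over all models of a part, a comparison added after the values were seen, orf2 over 5end was 2.59 for the dog, 3.21 for the genus Canis, 4.33 for the canid and 4.21 for the carnivore families. Over all L1_C models this TPM sum gave 3.07. Read density gave 4.97 (4.86 to 5.08) over all L1_C models and 3.39 (3.32 to 3.47) over the families with both parts. The value over all models was thus below or above 3.39 depending on the measure. To which orf2 model the reads of the 4 families without one were assigned was not tested.

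The 3end level was above the orf2 level in 5 of the 6 families with both parts, with a wide range of ratios. Among single families L1_Canis1 had the highest ratio, 3.12 (3.04 to 3.21), followed by L1_Canid with 2.43 (2.28 to 2.60). L1_Cf had 1.45 (1.41 to 1.498) and L1_Carn2 1.21 (1.12 to 1.31). In L1_Carn7 the ratio of 1.13 had an interval of 0.993 to 1.28, so that no difference was detectable at this depth. L1_Carni went the other way with 0.329 (0.225 to 0.471), and its models were the shortest of their parts, 696 nt for 3end and 1712 nt for orf2. From the reads summed over the 6 families, 3end was 1.98 times orf2 (1.94 to 2.02). The order of the lineages turned when models without a partner were counted. With TPM summed over all models of a part, 3end over orf2 was 1.45 for the dog, 1.79 for the genus Canis, 2.43 for the canid and 2.25 for the carnivore families. The sum for the genus Canis adds L1_Canis2_orf2, and that for the carnivores adds L1_Carn3_3end and L1_Carn5_3end, so that carnivore families were above L1_Cf by this sum and below it in the 3 families with both parts.

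From end to end, 3end over 5end, the L1_Cf profile was the flattest of the 7 families with both parts. Its ratio was 3.76 (3.61 to 3.92), against 8.96 in L1_Canis1 (8.59 to 9.34). The 4 carnivore families with both parts lay close together, with 9.92 in L1_Carn3 (8.51 to 11.6), 11.5 in L1_Carn2 (9.78 to 13.6), 12.6 in L1_Carn7 (9.89 to 16.3) and 13.5 in L1_Carn5 (11.1 to 16.4). Their intervals overlapped in every pair. L1_Canid had the steepest profile at 29.9 (25.2 to 35.9). With TPM summed over all models of a part, 3end over 5end was 3.76 for the dog, 5.74 for the genus Canis, 10.5 for the canid and 9.48 for the carnivore families. Here L1_Canis2_5end, L1_Canid2_5end and L1_Carn1_5end enter without a 3end partner, and L1_Carni_3end without a 5end partner.

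**Figure D4:**
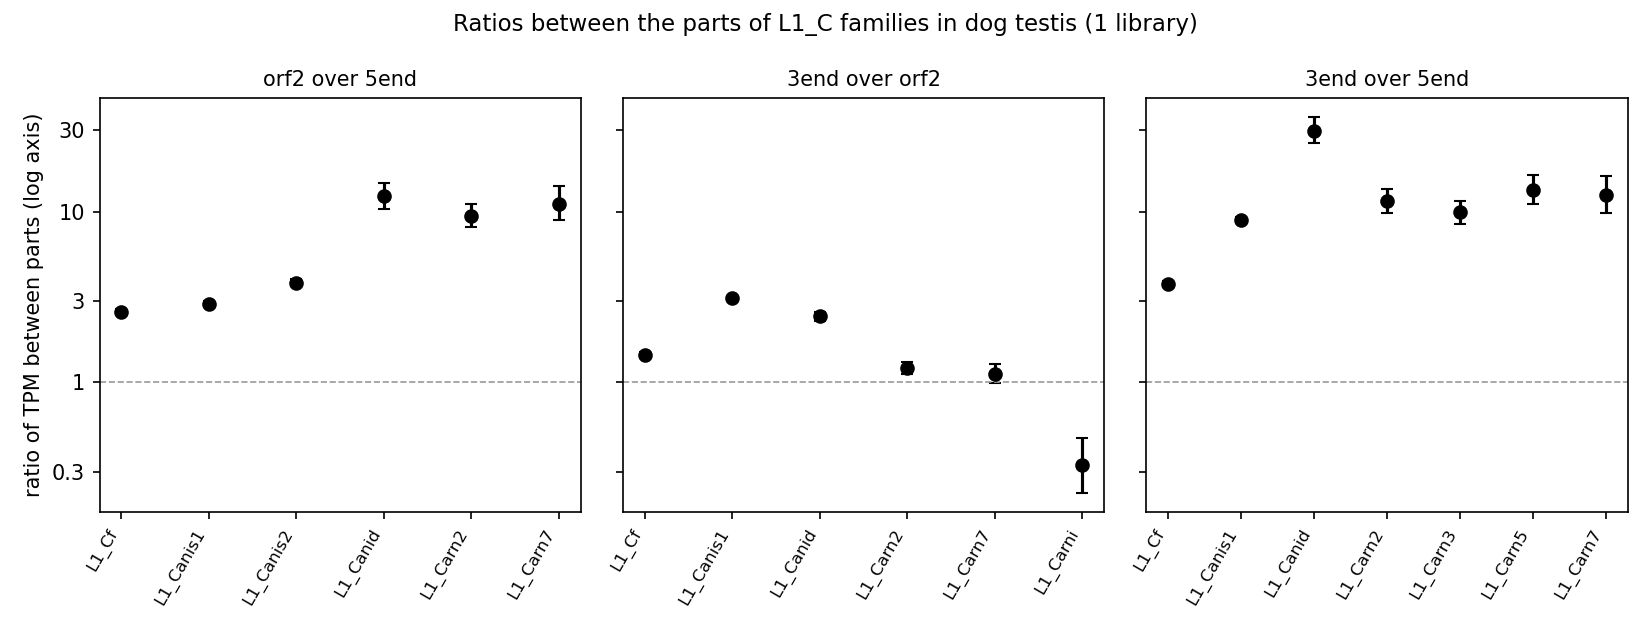
Ratios of TPM between the parts of L1_C families in the 1 dog mRNA library on a log axis, with exact counting intervals as bars and families ordered by the lineage in their names. L1_Cf has the lowest orf2 over 5end and 3end over 5end ratios, 2.59 and 3.76, and L1_Carni is the only family below 1 in 3end over orf2.

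In horse, L1 models named for the species held most of the L1 reads, and in bat most of the reads filed as LINE. Most of these models are whole-length, so that their parts cannot be compared with those of dog. In horse the 11 models named L1- and EC, for Equus caballus, held 81.1% of the L1 reads (80.9 to 81.3%) and 57.8% of the element reads, led by L1-2_EC with 18539 reads. In bat the 4 models named L1- and EF, for Eptesicus fuscus, held 82.7% of the reads filed as LINE (82.1 to 83.4%) and 19.8% of all reads, led by L1-4A_EF with 6558 expected counts. The dog share of 96.2% of L1 reads was above the horse share, but it includes canid and carnivore families and the lists of models differ. The bat share is of LINE reads and is not ranked against them. The 95 other L1 models of dog all recur by name in horse, where they held 12.7% of the L1 reads (12.5 to 12.9%), against 3.77% in dog (3.64 to 3.91%). As these are single libraries of separate species, the intervals compare the libraries and not the species.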

How the data were processed

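Per the submitters' processing notes, the mRNA libraries were processed with Bowtie and RSEM (versions not given) and the build CanFam3.1, named for all samples. The dog, horse and bat files hold TPM per repeat model with interval bounds, per the file headers, as deposited by the authors, and TPM is relative to the models of 1 file. The interval bounds and model lengths were treated as signal values on the deposited scale. The bat file also holds expected counts deposited by the authors, which were proportional to TPM times the length minus 24 nt (largest deviation 0.0216% over 217 models with over 20 counts). For the mRNA libraries, strandedness and read length are not given in the sources used.

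For dog and horse, TPM was multiplied by the model length less 24 nt. Low models clustered at 2322 in dog and 2616 in horse, which was taken as the worth of 1 read, and reads were rebuilt by dividing by it. As a check, the deposited upper bound of the 626 dog models at 0 TPM was 2.97 reads (median). Element reads are those of classes LINE, SINE, LTR, DNA and RC. Shares carry exact Clopper-Pearson 95% intervals, and ratios of parts the exact conditional binomial interval of rounded reads. No test between samples was possible with 1 library per group. The rebuilding and the ratio intervals were run on simulated Poisson counts made with the same 24 nt offset. This could not test the offset itself, and the intervals of shares were not simulated. Every L1_C model with at least 10 reads could be named, and of other L1 models the 3 with the most reads. Exceptions (L1MCa_5end, L1M4 and L1M2) were named after their values were seen. Members, lists and comparisons were chosen with earlier results of these data known. Python 3.11.15, pandas 2.3.3, NumPy 2.4.6 and SciPy 1.17.1 were used. The small RNA files were not used here.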

Additional observations from a re-analysis of the deposited data

How the results depend on the processing

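The L1_C share of element reads (68.7%) was 66.5% with full model lengths, 71.1% with lengths minus 49 nt, 69.0% over models with at least 10 reads, and 19.7% of TPM. The share of L1 reads was 95.2% by TPM. The shares of L1_C reads by lineage in dog, canid and carnivore families were 31.7%, 6.60% and 10.8% by TPM, 34.6%, 5.58% and 8.97% with orf2 parts only, and 27.6%, 7.95% and 12.7% with 3end parts only, where the genus Canis had 51.7%. L1_Cf and L1_Canis joined held 84.2%. The ratio of 3end to orf2 (1.98) was 2.07 over families with at least 50 reads in both parts and 1.94 per full length. It was 1.39 without L1_Canis1, 1.75 by TPM summed over all models and 1.44 by read density over all models. The ratio of orf2 to 5end (3.39) was 3.91 without L1_Cf, 3.07 by TPM summed over all models and 4.97 by read density over all models. Pooled over the other dog L1 models, 3end over orf2 was 0.586 but 1.04 and 1.58 over models with at least 10 and at least 50 reads, so that its direction depends on the low models, and orf2 over 5end was 26.2 but 6.70 with at least 10 reads. The horse share of 81.1% was 56.3% by TPM and 87.3% with all models named EC, and the bat share of 82.7% was 61.4% by TPM. The settings over all models, all EC models and read minima of pooled models were chosen after seeing the data. Of other L1 families, L1M4 alone had reads on 2 parts, and a minimum of 50 reads left it out. No paired analysis was possible because each group had 1 library. Depth limits mainly the 5end models of canid and carnivore families and L1_Carni_3end.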

Other observations

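The older L1 models named alike in dog and horse had their lowest read density in the 5end part in both testes. In dog the 40 other 5end models had 2.01 reads per kb, the 6 orf2 models 52.6 and the 43 3end models 30.8. In horse the same models had 19.3, 265 and 175 reads per kb. The densities are not scaled between the libraries, and the parts come from unlike families, so that they describe the sum of old models and not the profile of an element. For comparison, the L1_C models of dog had 387 reads per kb in 5end, 1924 in orf2 and 2772 in 3end.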
